A study of Bos taurus with 2 samples.

Results

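The T cells and natural killer (NK) cells of the newborn bovine mammary gland were selected on the UMI counts of 7 genes in 1 single-cell RNA library. A barcode was a member when it had at least 300 detected genes, when COL1A1 and COL3A1 together made up under 0.5% of its unique molecular identifiers (UMIs), and when it held 2 or more UMIs of CD3E, CD3D and CD3G, or 2 or more of NCR1 and KLRD1. This gave 118 members among the 13726 newborn barcodes with 300 genes, or 0.860% (exact binomial 95% interval 0.712 to 1.03%). The CD3 genes chose 83 of them (the CD3 gate, of which 4 also passed on NCR1 and KLRD1), and 35 passed on NCR1 and KLRD1 without passing on CD3 (the NK gate only).

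The series holds mammary gland cells of Holstein dairy cattle at 2 stages, with 1 library from a newborn and 1 from a lactating adult. Per the labels, both tissues were digested with hyaluronidase, collagenases and DNase, dead cells were removed where viability was low, and the 10x Genomics 3' V3 chemistry was used. The files held 29669 barcodes, 28633 of them with 300 genes, and the study states 24472 cells. With 1 library a stage there was no replicate, so no test was made, and stage, animal and library cannot be told apart. All intervals are exact, limits for a count of 0 rest on 3 counts, and both cover counting error only.

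T cells recognise antigen through a receptor whose signal is carried into the cell by the CD3 proteins and CD247, and CD4 or CD8 divides the classical T cells into helper and killer lineages. NK cells and the other innate lymphoid cells carry no such receptor, and NK cells kill through perforin and granule proteins such as granulysin. Calves also hold many gamma delta T cells, a share of which carry the WC1 family of scavenger receptors on their surface, and lymphocytes of the udder are known to lie in and under the epithelium.

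Members had a median of 5481 UMIs (781 to 46103) and 1519.5 genes, against 4585.5 UMIs in the 13608 other newborn barcodes. Mitochondrially encoded genes took a median of 3.13% of a member's UMIs and 1.29% in the other barcodes. A total of 57 barcodes occurred in both libraries, among them 2 members, 1 of which also passed the rule in the lactating library. Scrublet's automatic threshold marked under 0.5% of barcodes and did not work, so doublets were not removed, and barcodes rich in markers of other cells were set apart as described below.

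The gate genes are given as a description only. CD3E had 412 UMIs in 84 members, CD3D 94 UMIs in 55, CD3G 8 UMIs in 7, NCR1 161 UMIs in 37 and KLRD1 25 UMIs in 19. In the other newborn barcodes CD3E had 59 UMIs in 0.220% of barcodes and NCR1 26 UMIs in 0.0808%. Just inside the rule, 23 members held exactly 2 gate UMIs, and their summed level of 19 T and NK markers that are no gate genes was 3118 UMIs per 1000000 of all their UMIs (CPM). Just outside it, 25 barcodes low in collagen held 1 gate UMI and had 1029 CPM of the same markers. The collagen limit kept out 11 barcodes that passed a gate, 3 of them at 0.5 to 0.6% collagen, and let in 3 members at 0.4 to 0.5%. All 19 were present in the members, where they summed to 3302 CPM (3175 to 3434), against 37.0 CPM in the other newborn barcodes.

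Members were not free of RNA of other cells. The 15 fibroblast markers summed to 9503 CPM in members, against 46916 CPM in the other barcodes, and the median member held 0.186% of its UMIs in these genes, against 3.86%. A single member of 46103 UMIs held 356 of the 380 UMIs of ACKR1 and 343 of the 349 of SELP, both markers of venular endothelium, and 568 of the 665 UMIs of IL6. Leaving out the 15 members with at least 1.5% fibroblast-marker UMIs and the 3 with at least 10 endothelial-marker UMIs left 100 members, called cleaner members below (70 of the CD3 gate and 30 of the NK gate only). A stricter rule, which marks barcodes with 2 or more UMIs each of 2 or more markers of 1 other cell type, marked 75 of the 118 members, and leaving these out gave a share of 0.313%. In these the fibroblast markers summed to 2633 CPM and the endothelial markers to 17.3 CPM, while the 19 T and NK markers summed to 4016 CPM. Epithelial markers were at 0 in the cleaner members, and macrophage markers summed to 13.5 CPM with C1QA, C1QB, C1QC and CD163 at 0. B and plasma cell markers, a list that contains BLK (described below), summed to 65.4 CPM with MS4A1, PAX5 and JCHAIN at 0. Mast cell markers, a list that contains KIT, summed to 260 CPM in the cleaner members with MS4A2 and FCER1A at 0, against 128 CPM in the other newborn barcodes. What part this RNA has in each result was not tested.

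In the first comparison, members were set against the other barcodes of the newborn library, to find which genes the rule brought along. A gene counted as measured when its higher side had at least 50 CPM and 20 UMIs in 10 or more barcodes, and as different at 4-fold. Of 2722 measured genes outside the gate, 292 (10.7%) were higher and 236 (8.67%) were lower in members. In the cleaner members alone these were 370 (13%) and 489 (17.2%) of 2846. Because a gene can pass the filter through the members alone, the counts of list members below are descriptions.

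The signalling genes of T cells that the rule did not use were among the largest ratios. CD247, the zeta chain of the receptor complex, had 125 CPM in members and 1.73 CPM in the other barcodes, a ratio of 72.1. LCK, the kinase that starts the receptor's signal, had 131 CPM in members and 0.663 CPM in the other barcodes (ratio 198). ZAP70, which binds CD247, was found in 41 members (ratio 123). Of 24 T cell signalling and adhesion genes listed, 11 were measured and 10 were higher in members, with none lower. CD2, the adhesion receptor shared by T and NK cells, had a ratio of 246, and CD7, a surface protein of the same cells, had 97.1 CPM in members against 0.339 CPM in the others.

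Cytotoxic and NK receptor genes followed. CTSW, a protease of NK and killer T cells, had 933 UMIs in 87 members (73.7%), at 1224 CPM against 5.83 CPM in the other barcodes. PRF1, perforin, had 162 UMIs in 43 members (213 CPM) against 0.849 CPM, and NKG7, a granule membrane protein, 415 CPM against 2.27 CPM. GNLY, granulysin, had 703 UMIs in only 25 members, so its 922 CPM describe a minority. Of 15 cytotoxic genes 8 were measured and 6 were higher, and of 21 NK receptor genes 6 were measured and all 6 were higher. SH2D1A, the adaptor of the receptors CD244 and SLAMF1, was 361-fold higher (231 to 582), and HCST, the signalling partner of KLRK1, was 228-fold higher.

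UBD, a ubiquitin-like protein, was found in most members, with 2340 UMIs in 111 members (94.1%) and in 1.12% of the other barcodes (median per member 22.9 UMIs per 10000). Its level was 237-fold higher in members (219 to 257). The pan-leukocyte phosphatase PTPRC was found in 93 members (ratio 101), the chemokine receptor CXCR4 in 106 (ratio 89.0) and SRGN, the proteoglycan core of granules, in all 118 (ratio 19.2). Class I antigen presentation genes were higher together, 8 of 10 measured and none lower, with B2M at 12425 CPM in members against 1771 CPM in the other barcodes. None of the 11 class II genes was measured.

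Transcription factors of lymphocytes were higher in 10 of 13 measured cases (29 listed). GATA3, which directs T cell and type 2 lymphoid development, had 99 UMIs in 52 members, at 129.9 CPM against 3.04 CPM in the other barcodes (ratio 42.7, 33.2 to 54.7). RUNX3, a factor of killer lineages, was found in 61 members (ratio 117), EOMES, which directs NK and memory killer cells, in 24 (ratio 224), and TCF7, a factor of naive and innate lymphoid cells, in 47 (106 CPM against 2.79 CPM). Cytokine receptors followed the same direction in 6 of 10 measured cases: IL2RB, the shared chain of the interleukin-2 and interleukin-15 receptors, was found in 68 members (ratio 170) and IL7R, the interleukin-7 receptor, in 53 (ratio 22.9).

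Genes that were lower in members included those of connective tissue, and JUN and IER3 among the immediate early genes. ELN, elastin, was 15.5-fold lower (248 CPM in members against 3852 CPM in the others), COL1A2 9.77-fold lower and DCN 4.47-fold lower, in a comparison where the rule itself had set the collagen of members low. Among immediate early genes 15 of 19 were measured and none was higher and 2 were lower in members, JUN and IER3. Over all measured genes 8.67% were lower, so 2 of 15 does not set this list apart. JUN had 1449.8 CPM in members against 6186 CPM, and IER3 489 CPM against 2689 CPM. The 82 ribosomal protein genes measured were all within 4-fold.

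**Figure D1:**
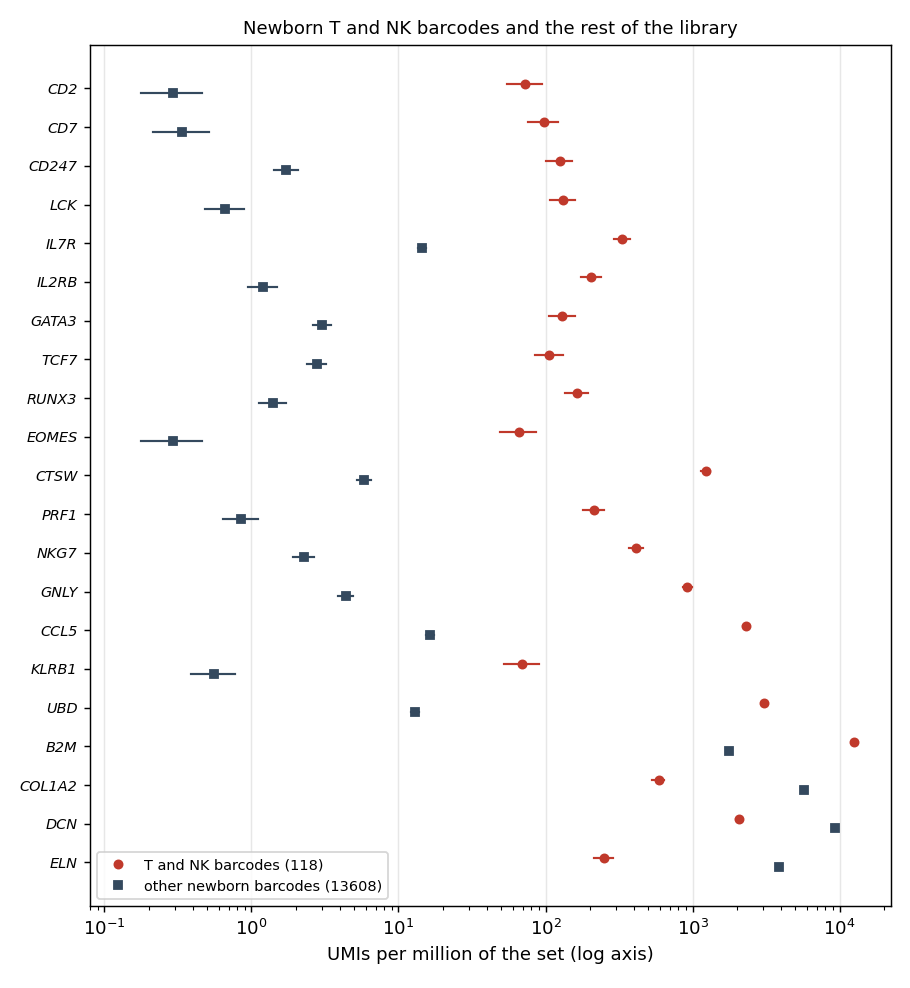
Level of selected genes in CPM (log axis) in the 118 members and the 13608 other newborn barcodes, with exact Poisson 95% intervals as lines. All genes but COL1A2, DCN and ELN lie higher in members, and UBD, CCL5, CTSW and GNLY lie furthest to the right among the lymphocyte genes.

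Many T cell genes were sparse or absent, and these depths allow only limits. No UMI was found in members for IFNG, IL17A, IL22, IL2, IL10, FOXP3, TIGIT, BTLA, CXCR3, CCR9, GZMK, RAG1, RAG2, DNTT or PTCRA, which, by a limit of 3 counts, allows each gene up to 3.94 CPM or a UMI in 2.54% of members. These include the effector cytokines of helper cells, the factor of regulatory T cells and the genes that rearrange receptors in the thymus. CD4 had 8 UMIs in 4 members, CD8A 25 UMIs in 17, CD8B 13 UMIs in 10, and the checkpoint receptors CTLA4 5 UMIs in 2 and PDCD1 27 UMIs in 18. The constant genes of the receptor chains carry no symbol in the files, so alpha beta and gamma delta T cells could not be divided by them.

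Within the members, the 30 cleaner members of the NK gate only were set against the 70 of the CD3 gate. Of 1745 measured genes outside the gate, 99 (5.67%) were at least 2-fold higher and 259 (14.8%) at least 2-fold lower in the NK gate (115, or 5.38%, and 284, or 13.3%, of 2139 when no member was left out), with median depths of 5844.5 UMIs in the NK gate and 4093 UMIs in the CD3 gate. GNLY had 685 UMIs in 22 barcodes of the NK gate (4036 CPM) and 1 UMI in the CD3 gate, a ratio of 1413 with an interval of 253 to 55872. CCL5, a chemokine that attracts T cells and monocytes, was found in all 30 of the NK gate at a median of 80.3 UMIs per 10000 (3.68 to 246), and in 18 of the 70 of the CD3 gate. Its level was 33.0-fold higher (26.7 to 41.1). PRF1 was found in 28 barcodes of the NK gate at 742 CPM, against 31.4 CPM in the CD3 gate (ratio 23.6, 12.8 to 48.5).

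The NK gate was also higher in IDO1, an enzyme that degrades tryptophan (931 CPM against 1 UMI in the CD3 gate), and in CCL4, a chemokine (595 CPM against 1 UMI). KLRB1, an NK receptor, had 46 UMIs in 15 barcodes of the NK gate and none in the CD3 gate, and was at least 31.6-fold higher, counting 3 UMIs over the CD3 gate. HOPX, a cofactor of effector lymphocytes, and FCER1G, the signalling chain of Fc and NK receptors, were each found in all 30 barcodes of the NK gate, 6.86-fold and 4.37-fold above the CD3 gate. EOMES was 9.54-fold higher at 218 CPM against 22.9 CPM. S1PR5 and KLRF1, both of mature NK cells, had 15 and 9 UMIs in the NK gate and none in the CD3 gate, which is below the 20 UMIs asked for. Low CD3 in the NK gate was fixed by the rule, which let in at most 1 CD3 UMI, and 28 of the 30 held none.

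A gene known in the files only as ENSBTAG00000047449 was the most abundant mark of the NK gate in the newborn library. It had 3406 UMIs in 27 of the 118 members, and it was found in 25 of the 30 cleaner members of the NK gate (83.3%) and in 0 of the 70 of the CD3 gate. Its level in the NK gate was 19693 CPM, against 19.7 CPM in the other newborn barcodes. In the lactating library it did not divide the gates in this way. There it was found in 1027 of 6412 cleaner barcodes of the CD3 gate (16.0%, 1565 CPM). In the lactating NK gate only it was found in 39 of 116 (33.6%, 6983 CPM).

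Lower in the NK gate were receptors and factors of T cells and helper-like lymphoid cells. IL7R had 29.5 CPM in the NK gate and 640.1 CPM in the CD3 gate, 21.7-fold lower (9.17 to 67.6). GATA3 had 29.5 CPM and 243 CPM, 8.24-fold lower (3.40 to 26.0), and TNFRSF18, a costimulatory receptor, 47.1 CPM and 406 CPM, 8.61-fold lower. ZAP70, CD7 and CD5, a signal inhibitor of T cells, had no UMI in the NK gate and were found in 29, 25 and 19 barcodes of the CD3 gate, at least 7.76-fold, 9.38-fold and 4.69-fold lower. LCK had 212 CPM in the NK gate against 123 CPM, and CD247 129.6 CPM against 183 CPM, both within 2-fold. Of 14 heat shock genes 11 were measured, none was higher and 3 were lower in the NK gate, among them HSPA1A at 259 CPM against 1606 CPM in the CD3 gate.

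Few members held marks of division. MKI67 or TOP2A, both made by dividing cells, were found in 7 of its 30 barcodes (23.3%, 9.93 to 42.3%) against 2 of 70 (2.86%) of the CD3 gate. With every barcode thinned to 1000 UMIs these shares were 10.3% of 29 (2.19 to 27.4%) and 2.90% of 69 (0.353 to 10.1%), whose intervals overlap, and 0.0406% of the other newborn barcodes.

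**Figure D2:**
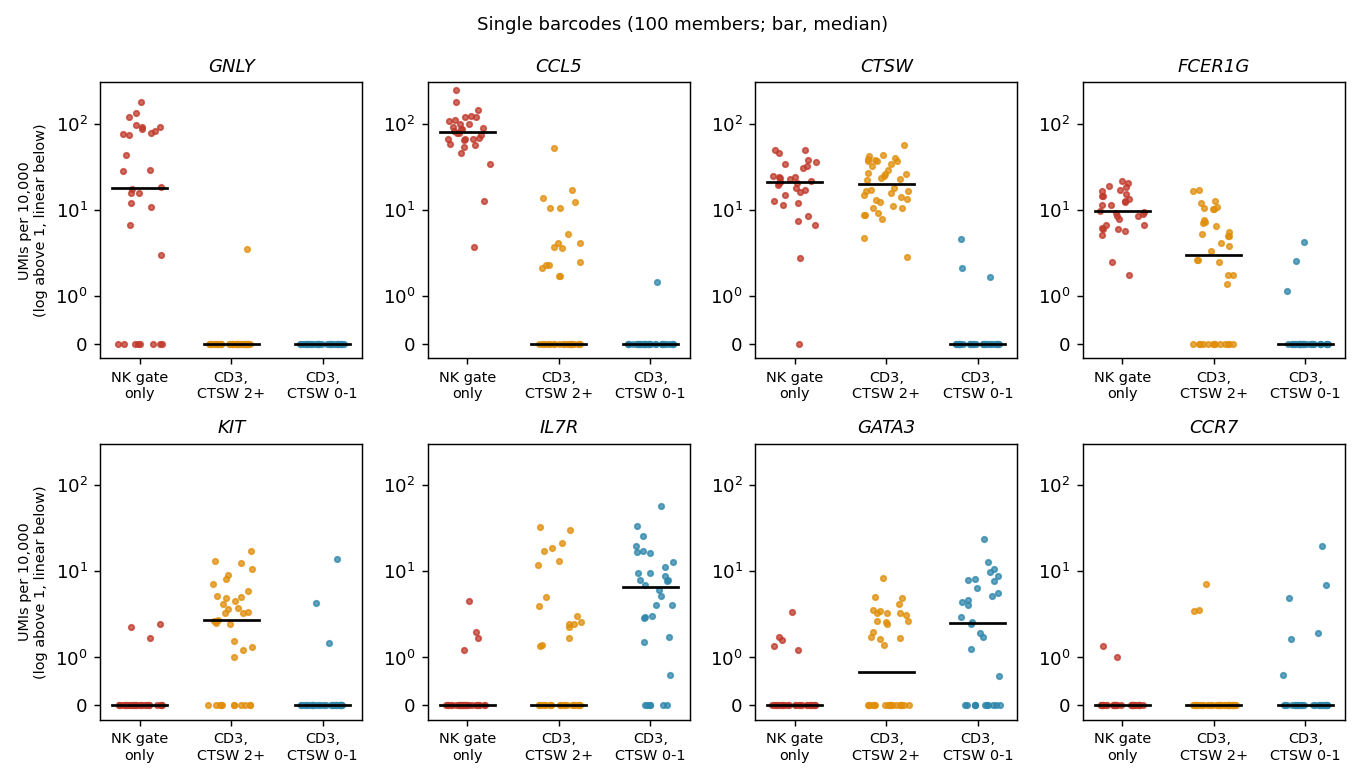
UMIs per 10000 in single barcodes of the 100 cleaner members (log scale above 1, linear below), for the NK gate only (30), the CD3 gate with 2 or more CTSW UMIs (38) and the CD3 gate with 0 or 1 (32), with bars at the medians. GNLY and CCL5 are high in the NK gate, CTSW at a similar level in the NK gate and the first CD3 group, and IL7R and GATA3 highest in the CD3 group with little CTSW.

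The CD3 gate was itself mixed. Of its 70 cleaner members 38 (54.3%) held 2 or more CTSW UMIs and 32 held 0 or 1, against 0.250% of the other newborn barcodes with 2 or more. This division was chosen after its values were seen, and what follows describes the 2 groups side by side. Of 1179 measured genes, 98 (8.31%) were at least 2-fold higher and 145 (12.3%) at least 2-fold lower where CTSW was present. The median depths were close, at 4302.5 UMIs with CTSW and 3882.5 UMIs without.

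The group with CTSW held FCER1G and KIT, the receptor of stem cell factor, which mast cells and innate lymphoid cells carry. KIT was found in 27 of 38 (71.1%) with CTSW against 3 of 32 (9.38%) without, at 342 CPM against 36.2 CPM (ratio 9.45, 4.11 to 26.7). FCER1G was found in 25 of 38 (65.8%) against 3 of 32, at 429 CPM against 24.1 CPM (ratio 17.8, 6.68 to 66.9). After thinning to 1000 UMIs FCER1G was found in 39.5% against 0% and KIT in 21.1% against 0%, where 4.12% and 2.69% of the other newborn barcodes held them. These shares vary with the draw: KIT was found in 8 of 38 and 0 of 31 here. A separate draw of the whole cleaner CD3 gate found it in 15 of 69. Either gene was found in 32 of 38 (84.2%) with CTSW and 5 of 32 (15.6%) without. The lactating CD3 gate also held such barcodes. There 65.9% of the 6412 cleaner barcodes held 2 or more CTSW UMIs. Of these 4228, FCER1G was found in 53.1%, KIT in 36.4% and CD8A or CD8B in 45.4%, without thinning. MS4A2, HDC, FCER1A and GATA2, markers of mast cells and basophils, were at 0 in the group with CTSW. CPA3, a marker of the same list, was not, and 21 of its 28 UMIs in all members lay in 1 barcode. That barcode, of 4070 UMIs, belonged to the group with CTSW and also held KIT and FCER1G.

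Of 15 cytotoxic genes 4 were measured between these groups, and 2 of them were higher with CTSW and none lower. These were NKG7, at 261 CPM with CTSW against 42.2 CPM without, and CST7, an inhibitor of granule proteases, at 309.5 CPM against 36.2 CPM. CCL5 had 499.6 CPM with CTSW against 1 UMI without (ratio 82.8, 14.5 to 3307), and IL2RB 331 CPM against 60.3 CPM. CD244, an NK receptor, had 18 UMIs in 13 barcodes against none, which is below the 20 UMIs asked for. CD8A or CD8B was found in 15 of 38 (39.5%) against 3 of 32, and KLRD1 in 7 against 0, shares whose intervals overlap. PRF1 was found in 5 of 38 and 4 of 32, and GNLY in 1 and 0, so the group with CTSW held little of the killing proteins that marked the NK gate.

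IL7R and GATA3, the receptor and factor shared with helper-like lymphoid cells, were present in both groups. IL7R was found in 17 of 38 (44.7%) with CTSW against 26 of 32 without, at 516 CPM against 778 CPM, which is within 2-fold. GATA3 was found in 19 of 38 against 21 of 32, at 141 CPM against 356 CPM (2.52-fold lower). At 1000 UMIs IL7R was found in 21.1% with CTSW against 51.6% without. WC1, WC1-12 or CD163L1, the symbols of the WC1 family in the files, were found in 3 of 38 with CTSW against 8 of 32 without, and CD4 in 0 of 38 against 4 of 32, shares whose intervals overlap. BLK, a kinase known from B cells and gamma delta T cells of mice, had no UMI with CTSW and 20 UMIs in 9 barcodes without. IFITM1, an interferon-induced membrane protein, was 5.00-fold lower with CTSW (54.3 CPM against 271 CPM). The heat shock cochaperone DNAJB1 was 6.93-fold lower with CTSW (157 CPM against 1092 CPM).

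**Figure D3:**
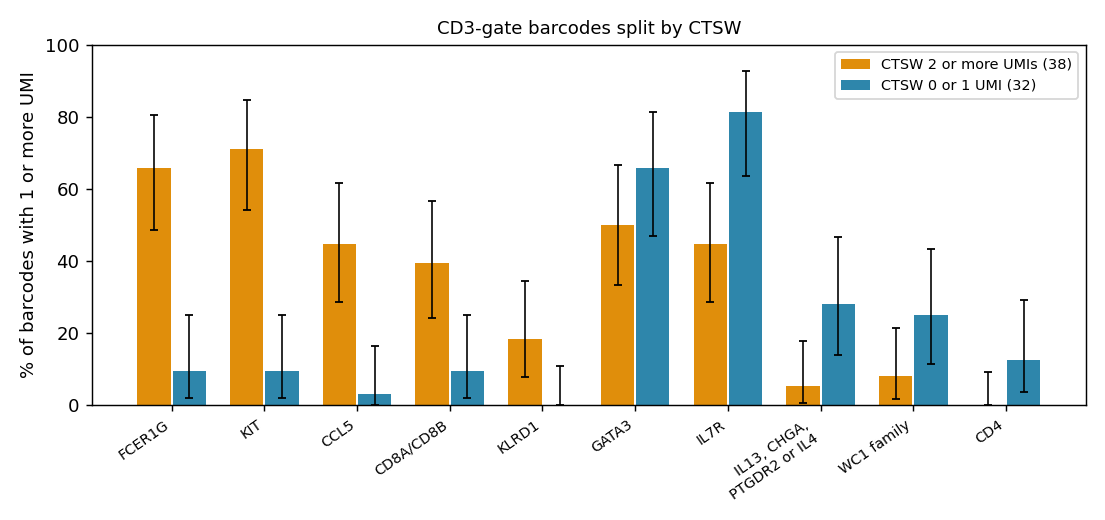
Percent of barcodes with at least 1 UMI of each gene or gene set, with exact binomial 95% intervals, in cleaner members of the CD3 gate with 2 or more CTSW UMIs (38, orange) and with 0 or 1 (32, blue). KIT stands at 71.1% with CTSW and 9.38% without, and IL7R at 44.7% with CTSW and over 80% without.

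Lineage receptors were found in a minority of the CD3 gate. CD8A or CD8B was found in 18 of the 70 cleaner members (25.7%), the WC1 family in 11 (15.7%) and CD4 in 4 (5.71%), and no barcode held both CD4 and CD8 UMIs. None of these genes was found in 39 (55.7%, 43.3 to 67.6%). CCR7 or LEF1, a lymph node homing receptor and a factor of naive T cells, were found in 14, of which 8 also held CD4 or CD8 UMIs and 6 held 2 or more CTSW UMIs.

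A type 2 signature was seen in few barcodes. IL13, a type 2 cytokine, had 25 UMIs in 5 members, 13 of them in 1 barcode. CHGA, a secretory granule protein, had 16 UMIs in 7 members, PTGDR2, a prostaglandin receptor of type 2 lymphoid cells, 6 UMIs in 4, and HPGDS, an enzyme of prostaglandin synthesis, 31 UMIs in 8. IL13, CHGA, PTGDR2 or IL4 were found in 11 of the 70 cleaner members of the CD3 gate. All 11 held IL7R, 9 held GATA3, 9 held no CD3D and 2 held 2 or more CTSW UMIs. Over the whole CD3 gate CD3D was at 0 in 26 (37.1%). The set of 4 genes was chosen after its values were seen.

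In the last comparison the same rule was applied to the lactating library, where 6821 of 14907 barcodes passed (45.8%), at a median of 3024 UMIs and a maximum of 274917. Members of the newborn library had passed on NCR1 and KLRD1 in 33.1% of cases (24.7 to 42.3%), against 4.15% (3.69 to 4.65%) of lactating members. Passing a gate of 2 UMIs depends on depth, and these shares were not taken at equal depth (medians 5481 and 3024 UMIs). A gene was counted as different at 2-fold, provided its level on the higher side was at least 50% of that in the other barcodes of its own library. Of 2209 measured genes, 109 (4.93%) were higher and 110 (4.98%) lower in newborn members. With every ratio centred on the median of all measured genes, which lay 0.17 log2 above 0, the split was 68 higher and 129 lower. The cleaner members gave 138 (6.26%) higher and 112 (5.08%) lower of 2206. Since the mix of gates differed, the values below are for cleaner members of each gate.

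For the CD3 gate, 70 newborn barcodes were set against 6412 lactating barcodes. Of 2072 measured genes 157 (7.58%) were higher and 132 (6.37%) lower in the newborn, with a median of 0.21 log2; with no member left out these were 177 (7.77%) and 130 (5.71%) of 2278. IFITM1 was found in 32 newborn barcodes (45.7%) against 2.57% of lactating barcodes, at 157 CPM against 6.73 CPM (16.9 to 31.7-fold). PHGDH, the first enzyme of serine synthesis, had 320.0 CPM against 22.3 CPM (ratio 14.4, 11.6 to 17.6), and in thinned barcodes was found in 24.6% against 1.19%. TNFRSF18 had 406 CPM against 39.3 CPM (ratio 10.3, 8.59 to 12.3), and IL2RA, the high-affinity chain of the interleukin-2 receptor, 157 CPM against 18.4 CPM (ratio 8.55, 6.35 to 11.3). GATA3 had 243 CPM in the newborn against 66.8 CPM (2.89 to 4.52-fold). After thinning, IFITM1 was found in 17.4% of the newborn CD3 gate against 3.61% of the other newborn barcodes, and IL2RA in 10.1% against 2.78%. As counts these were 12 and 7 of 69. In separate draws of the groups with and without CTSW, IFITM1 was found in 1 of 38 and 5 of 31. IL2RA was found there in 4 of 38 and 6 of 31.

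Genes of naive and recirculating T cells were higher in the newborn in 3 of 6 measured cases and lower in none. TCF7 was 2.37-fold and SATB1, a chromatin organiser of T cell development, 2.21-fold higher. SOX4, a factor of developing lymphocytes, was 2.69-fold higher. The WC1 family was found in 15.7% of newborn barcodes against 2.42% (2.06 to 2.82%) of lactating barcodes, and after thinning in 7.25% against 0.898%.

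Effector cytokines and chemokines were lower in the newborn CD3 gate, 5 of 9 measured against 1 higher. IFNG had no UMI in the newborn and 92.1 CPM in 13.7% of lactating barcodes, at least 10.7-fold lower. CCL3 was likewise at 0 against 189.6 CPM, at least 22.1-fold lower. CCL4 had 1 UMI against 988 CPM, 346-fold lower with a lower bound of 62.1, and XCL1, a chemokine for dendritic cells, 3 UMIs against 241 CPM, 28.1-fold lower (9.61 to 136). CCL5 had 266 CPM against 1799 CPM, 6.77-fold lower (5.52 to 8.39). GNLY had 1 UMI against 582 CPM in 17.9% of lactating barcodes, and PRF1 was 3.56-fold lower.

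Genes of tissue residency and recent activation were also lower in the newborn, 8 of 13 measured against 1 higher, with a median of -1.09 log2. RGS1, an inhibitor of chemokine signalling, had 446 CPM against 1422 CPM, NR4A2, an early factor of receptor signalling, 94.3 CPM against 291 CPM, and CXCR6, a homing receptor of tissue T cells, 40.0 CPM against 132 CPM. The exception was CD44, an adhesion receptor, 2.10-fold higher. CD96, an NK and T cell receptor, was 3.70-fold lower, CD2 2.44-fold lower and CD8B 2.30-fold lower.

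Class II genes were lower as well, with BOLA-DRA at 1 UMI in the newborn against 331 CPM. Over all 118 newborn and 6821 lactating members, not the cleaner ones, the summed markers of 4 other kinds of cell were lower in the newborn. Fibroblast genes went the other way in the cleaner CD3 gate. DCN was found in 65.7% of newborn against 4.80% of lactating barcodes, and PTX3 in 94.3% against 2.50%. Epithelial markers summed to 3.94 CPM in newborn members against 1942 CPM in lactating members, and neutrophil markers to 36.7 CPM against 1283 CPM. Dendritic cell markers, a list that contains BOLA-DRA and other class II genes, summed to 201 CPM against 809 CPM. B and plasma cell markers, a list that contains JCHAIN, summed to 47.2 CPM against 617 CPM. The dendritic sum is therefore not independent of the class II values, nor the B and plasma cell sum of JCHAIN. The part of these 4 kinds of cell in the class II, IL1B and JCHAIN values was not tested. JCHAIN, a plasma cell gene, and IL1B had no UMI in newborn members against 518 CPM and 82.3 CPM in lactating members, at least 131.5-fold and 20.9-fold lower.

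**Figure D4:**
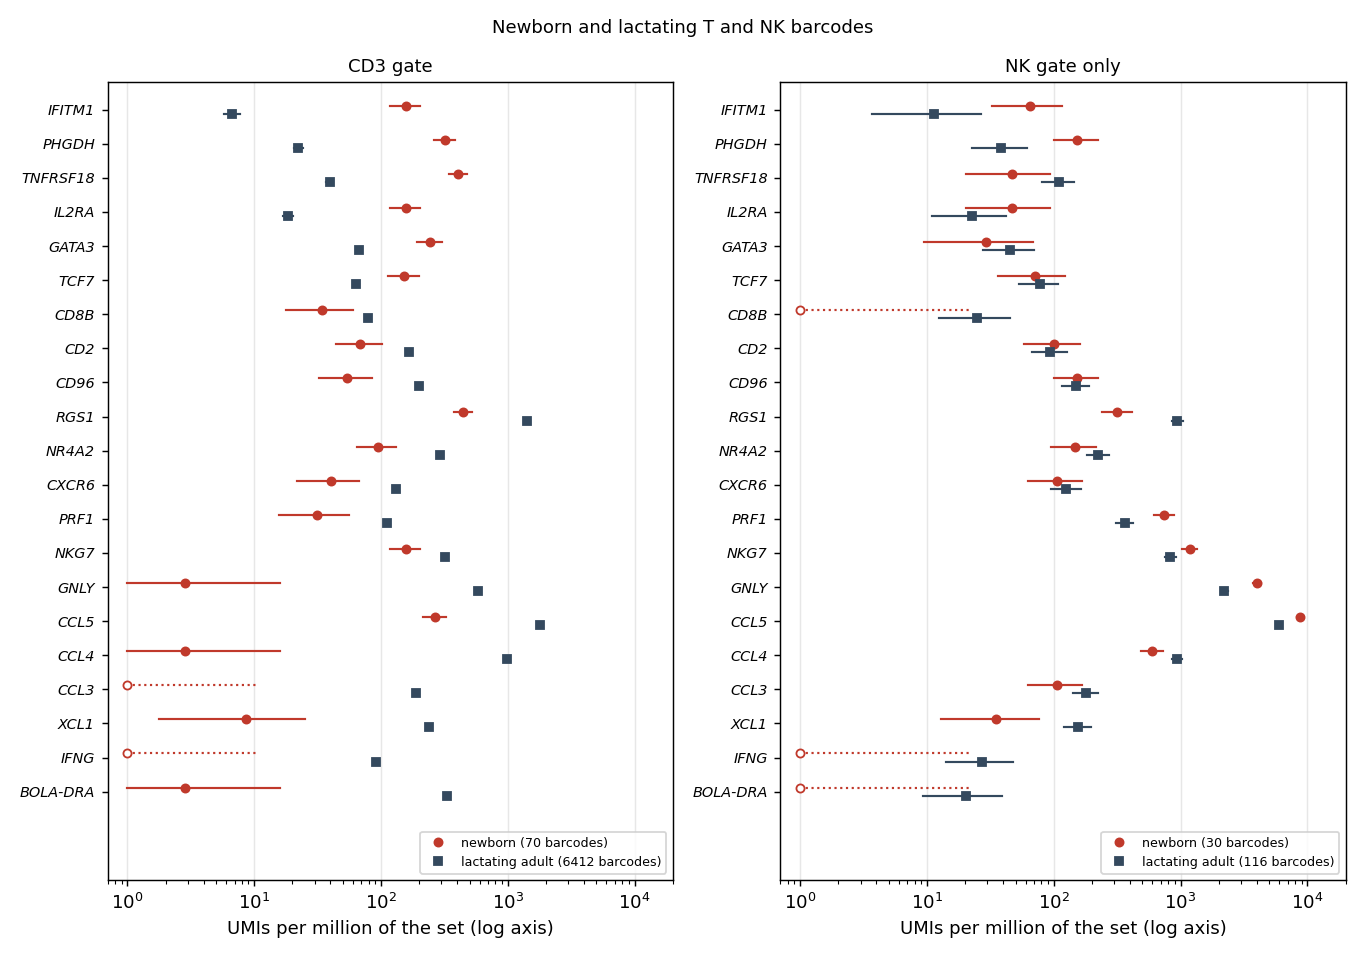
Level in CPM (log axis) with exact Poisson 95% intervals in cleaner members of the newborn and of the lactating adult library, for the CD3 gate (70 and 6412 barcodes) and the NK gate only (30 and 116). Hollow points stand for 0 UMIs, with dotted lines to the upper limit. The newborn points of IFITM1 and PHGDH lie right of the lactating points in both gates. Those of GNLY, CCL5 and PRF1 lie left of the lactating points in the CD3 gate and right of them in the NK gate.

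For the NK gate only, 30 newborn barcodes were set against 116 lactating barcodes. Of 1541 measured genes 58 (3.76%) were higher and 125 (8.11%) lower in the newborn, with a median of -0.10 log2; with no member left out these were 65 (3.7%) and 122 (6.94%) of 1757. Among the killing genes PRF1 was higher in the newborn, at 742 CPM against 364 CPM (ratio 2.04, 1.60 to 2.59). GNLY had 4036 CPM against 2207 CPM (ratio 1.83) and CCL5 8762 CPM against 5988 CPM (ratio 1.46), which did not reach 2-fold. LGALS9, a galectin, was found in 28 of 30 at 536 CPM against 179.9 CPM (ratio 2.98, 2.18 to 4.08), and PHGDH had 153 CPM against 38.7 CPM (ratio 3.96, 2.07 to 7.77). The gene ENSBTAG00000047449 had 19693 CPM against 6983 CPM.

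Division genes were higher in the newborn NK gate in 3 of 4 measured cases. HMGB2, a chromatin protein of dividing cells, had 731 CPM against 351 CPM, and STMN1, a microtubule regulator, was 2.43-fold higher. MKI67 had 40 UMIs in 7 of 30 newborn barcodes and 11 UMIs in 7 of 116 lactating barcodes. Lower in the newborn were XCL1 (35.4 CPM against 155 CPM, 4.38-fold lower), RGS1 (318 CPM against 945 CPM, 2.97-fold lower) and the heat shock gene HSPA1A (259 CPM against 679 CPM).

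Shares of all members were also compared at equal depth, with every barcode thinned to 1000 UMIs (116 newborn members, 2 shallower ones left out), and these shares carry the differing mix of gates. Each set was thinned in a separate draw, and the intervals do not cover the spread between draws. GATA3 was found in 16.4% (10.2 to 24.4%) of newborn members and 6.03% of lactating members, with 0.430% in the other newborn and 4.74% in the other lactating barcodes. In the cleaner newborn members it was found in 11.2% (5.74 to 19.2%), and in the cleaner CD3 gate in 18.8% (10.4 to 30.1%) of newborn against 6.22% of lactating barcodes. The 2 newborn values came from separate draws, with 11 of 98 cleaner members but 13 of 69 in their CD3 gate alone. The part of the draw in the difference from 16.4% was not tested. KLRB1 was found in 5.17% of newborn against 1.29% of lactating members, and in 2.06% (0.251 to 7.25%) of newborn members once the highest Scrublet scores were left out. By gate, it was found in 0% of the newborn CD3 gate against 1.09%, and in 24.1% (10.3 to 43.5%) of the newborn NK gate against 15.7% (9.55 to 23.6%). CD8A or CD8B was found in 6.90% (3.02 to 13.1%) of newborn against 14.0% of lactating members. IL7R was found in 17.2% against 31.0%, where 1.99% of the other newborn barcodes held it, but in the cleaner CD3 gate it was found in 31.9% (21.2 to 44.2%) of newborn against 31.8% of lactating barcodes. The draws differed for IL7R: 20 of all 116 newborn members held it, but 22 of the 69 in the cleaner CD3 gate did. The 17.2% is therefore less certain than its counting error alone gives. CD69, a receptor of recent activation, was found in 10.3% against 19.5%, and CD4 in 0.862% against 5.15%. FOXP3 was found in 0 of 116 newborn members, where a limit of 3 counts allows a UMI at this depth in up to 2.59% of members, and in 0.0602% of lactating members. Without thinning the shares were 44.1% against 17.6% for GATA3, 14.4% against 3.37% for KLRB1, 19.5% against 33.4% for CD8, 44.9% against 46.0% for IL7R, 28.8% against 42.2% for CD69 and 3.39% against 13.2% for CD4.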

How the data were processed

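The deposited values were raw UMI counts per gene and barcode, not normalised by the authors. The submitters' processing notes name Cell Ranger 3.1.0 as their tool. As to genome build, annotation and cell calling, each is not given in the sources used here. Genes of the WC1 and class I families resemble each other and may share reads. No barcode was removed beyond the minimum of 300 genes, and the doublet scores served only as an alternative.

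UMIs were summed over the barcodes of a set and divided by the summed UMIs of the set (CPM). Sums have exact Poisson intervals, shares exact binomial (Clopper-Pearson) intervals and ratios exact conditional binomial intervals, all at 95%. A gene at 0 was set against 3 UMIs over the set. The newborn library held 13772 barcodes, members 762187 UMIs and the other newborn barcodes 64808793 UMIs. For equal depth, each barcode was thinned to 1000 UMIs with a fixed seed. Each set was thinned in a single draw of its own, so the count of a set need not equal that of its parts. The spread between draws lies outside the intervals. PCR copies were collapsed by the UMIs.

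Named genes were members of 32 gene lists, the 20 largest ratios against the other barcodes, the 12 largest in each direction between stages and the 8 largest in each direction between gates, without mitochondrial, ribosomal and milk protein genes. The cleaner members, the CTSW division and genes named from them were added after the data were seen. The members and the lists were chosen with earlier results of these data known. A CD3 gate or NK gate alone was likewise added after seeing the data. The other alternatives varied the limits on genes, collagen, gate UMIs and depth, the doublet rule, the fold and the weighting of barcodes. Scripts were tested on simulated counts. Tools were Python 3.11.15, numpy 2.4.6, scipy 1.17.1, pandas 2.3.3, scanpy 1.11.5 and matplotlib 3.10.9. Some genes of the lists are not reported here.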

Additional observations from a re-analysis of the deposited data

How the results depend on the processing

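No paired analysis was possible because each stage is 1 library. Against the other newborn barcodes, the 236 genes lower in members became 361 with collagen under 0.2%, 108 with no collagen limit, 415 after removal by Scrublet score, 513 after removal of barcodes with markers of several lineages, 489 without members rich in fibroblast or endothelial markers, 441 with equal weight per barcode and 586 at 2-fold, where 541 were higher. The members' share became 0.692% with 3 gate UMIs and 0.313% after removal of mixed barcodes. Between stages, the 109 genes higher in newborn members became 177 in the CD3 gate alone, 65 in the NK gate alone, 68 when centred, 18 at 4-fold, and 223 or 65 with the guard against surrounding RNA absent or at 100%. The 110 lower genes became 38 at 4-fold, and 183 or 66 with the guard absent or at 100%. The share with CD4 was 0 with 3 gate UMIs, after removal by Scrublet score, after removal of mixed barcodes and at 2000 UMIs. It was 1.02% without members rich in fibroblast or endothelial markers. IL7R was found in 26.2% after removal of mixed barcodes, 33.3% at 2000 UMIs and 44.9% unthinned. At 500 UMIs the cytotoxic genes were found in 30.5% and KLRB1 in 1.69%, and unthinned in 55.1% and 14.4%. At 2000 UMIs and unthinned, CD8 was found in 15.8% and 19.5%, GATA3 in 25.4% and 44.1%, and CD69 in 19.3% and 28.8%. GATA3 was found in 10.2% at 500 UMIs. Over 103 genes against the other barcodes, 957 of 1236 values stayed within the interval and 279 moved. Between stages 606 of 782 values for 57 genes stayed within, 168 moved and 8 turned round. These were IL6 (log2 -0.99 with collagen under 0.2%, -4.58 in the NK gate), KLRB1 (-2.32) and IDO1 (-0.75) in the CD3 gate, and TNFRSF18 (-0.39), CD2 (0.42), GATA3 (-0.71) and CCR7 (-1.56) in the NK gate. For 9 genes 16 values gave no direction because 1 set was at 0. The gate settings were chosen after seeing the data, and the differing mix of gates follows from their construction; other causes were not tested. With 118 members, a gene under 3.94 CPM in members could have gone unseen.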
